A study of Mus musculus with 14 samples.

Results

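Satb1, Cux1, Cux2, Pou3f1, Pou3f2, Pou3f3, Mef2c and Rorb are transcription factors known from the upper layers of the mouse cerebral cortex. They were taken by gene symbol from the count tables of a study of Lhx2, which encodes a LIM homeodomain transcription factor. All 8 members were present and tested in both tables, which list 25229 symbols in the progenitor experiment and 55353 in the postmitotic experiment.

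The study deleted Lhx2 from layer II/III neurons at different stages, and RNA was sequenced from layer II/III tissue dissected at postnatal day 5. In the progenitor experiment, Lhx2lox/lox mice were electroporated in utero at embryonic stage E15.5 with a Cre-EGFP plasmid (mutant, n = 4) or an EGFP plasmid (control, n = 4). In the postmitotic experiment, NexCre/+; Lhx2lox/lox mice (mutant, n = 3) and Lhx2lox/lox mice (control, n = 3) were electroporated with EGFP. All 4 groups therefore carried the lox-flanked Lhx2 allele and had been electroporated. The plasmid reaches only the cells that take it up, while the Nex promoter drives Cre in postmitotic excitatory neurons. The labels' protocols describe microdissection and dissociation but name no sorting step. They do not say whether libraries came from separate or pooled animals. The p-values therefore measure the spread between these libraries, which may be partly technical. In every group but the progenitor controls, libraries differed in Y-linked RNA (given below), so they did not all come from the same animals.

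Upper-layer neurons connect cortical areas with each other, and their identity depends on transcription factors that act from the last divisions of the progenitors into the growth of dendrites and synapses. Satb1 organises chromatin at AT-rich DNA. Cux1 and Cux2 are homeodomain proteins with additional CUT domains that mark upper-layer neurons and shape their dendrites and spines. The class III POU factors Pou3f1, Pou3f2 and Pou3f3 pair a POU-specific domain with a POU homeodomain, and Pou3f2 and Pou3f3 are needed for the production and migration of upper-layer neurons. Mef2c is an activity-regulated MADS-box factor that limits synapse number, and Rorb is an orphan nuclear receptor characteristic of layer IV.

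The 3 POU factors are each encoded by a single exon and resemble one another closely, so the sequences that tell their reads apart are shown first. These 90-base coding stretches (GRCm38/mm10, GENCODE M21) are written 5′ to 3′ on the coding strand, and capitals mark the 12 positions that are not identical in all 3 genes.

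Pou3f1, chr4:124658541-124658630, plus strand: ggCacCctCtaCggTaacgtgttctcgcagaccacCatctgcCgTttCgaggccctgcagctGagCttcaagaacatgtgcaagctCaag
Pou3f2, chr4:22487151-22487240, minus strand: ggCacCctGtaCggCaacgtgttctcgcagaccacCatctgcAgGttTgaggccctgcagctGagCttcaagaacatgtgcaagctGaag
Pou3f3, chr1:42698178-42698267, plus strand: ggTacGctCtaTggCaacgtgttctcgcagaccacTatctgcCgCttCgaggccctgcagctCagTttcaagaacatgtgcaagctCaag

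Even in this stretch Pou3f1 and Pou3f2 differed at 6 positions, Pou3f1 and Pou3f3 at 8 and Pou3f2 and Pou3f3 at 11. The longest run shared by any pair of their coding sequences was 38 bases, between Pou3f1 and Pou3f2, which is shorter than the 150-base reads. The sources used here do not say how the authors' counting treated reads that match several genes.

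The 8 progenitor libraries held 22677019 to 29497595 counts each and the 6 postmitotic libraries 21605777 to 25891416. The members had between 2249 and 59732 counts in a library. Levels are given as CPM, counts scaled to a common library size with TMM factors. A gene was called where its p from the quasi-likelihood F test of edgeR, adjusted over all tested genes by the Benjamini-Hochberg method, was under 0.05, and "edgeR's adjusted p" stands for that value throughout. Log2 fold changes are mutant over control, with their standard error (SE).

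Lhx2 itself did not fall under the mutant label. Its progenitor level averaged 129 ± 11.4 CPM in the libraries labelled mutant and 127 ± 9.10 CPM in controls (SD, n = 4 each). The log2 fold change was 0.02 ± 0.07 (SE, edgeR's adjusted p = 0.847). In the postmitotic experiment it averaged 179 ± 7.41 CPM in the libraries labelled mutant and 147 ± 3.48 CPM in controls (SD, n = 3 each), which is 0.29 ± 0.06 higher on the log2 scale (SE, edgeR's adjusted p = 0.0276). That call was lost in 5 of the 6 fits that left out 1 library. The counts cover the whole gene and the sources used here do not name the deleted exons, so these values do not check the recombination. Neurod6, the gene whose locus carries the NexCre allele, had 112 ± 18.6 CPM in postmitotic libraries labelled mutant and 171 ± 7.66 CPM in postmitotic controls (SD, n = 3 each), and it was called lower. The word "mutant" below means the label.

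Markers of several cell types were present in every library. Slc17a7, the vesicular glutamate transporter of excitatory neurons, averaged between 202 and 477 CPM in the 4 groups, beside 34.1 CPM or less of Gad2, an enzyme of inhibitory neurons, in mutant groups and 39.7 CPM or less in control groups. Astrocyte, oligodendrocyte, endothelial and microglial markers were all detected, and no marker listed for these types was at 0 in all libraries. In such bulk tissue, fewer cells of a type and less RNA per cell cannot be told apart. RNA of Y-linked genes also divided the libraries unevenly. The summed level of Kdm5d, Eif2s3y, Uty and Ddx3y was 0, 155, 99.4 and 170 CPM in progenitor mutants 1 to 4 and at most 0.0381 CPM in the progenitor controls. It was 0, 0 and 141 CPM in the postmitotic mutants and 166, 134 and 0.0463 CPM in the postmitotic controls. Progenitor mutant 3 also had 554 CPM of Xist, which is transcribed from the inactive X chromosome.

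The members covered a wide range of levels, compared here per kilobase of annotated exon because their transcripts differ in length. The length used is the union of exons over all annotated transcripts, 20024 bases for Cux1 and 10082 for Cux2. The order and the ratios between genes depend on it: in progenitor controls Cux1 and Cux2 had 258 and 249 CPM before this scaling. Mef2c led in every group, with 118 ± 3.58 CPM per kb in progenitor mutants and 123 ± 5.45 CPM per kb in progenitor controls (SD, n = 4 each). Its level was 137 ± 12.3 CPM per kb in postmitotic mutants and 142 ± 9.72 CPM per kb in postmitotic controls (SD, n = 3 each). Pou3f1, Pou3f3, Cux2 and Pou3f2 followed in that order in all 4 groups. Their library ranges overlapped between some neighbours: Pou3f1 with Pou3f3 in progenitor mutants and postmitotic controls, Pou3f3 with Cux2 in progenitor controls, and Cux2 with Pou3f2 in both progenitor groups and in postmitotic mutants. Satb1, Cux1 and Rorb were the 3 lowest in every group by their means. In progenitor controls the range of Satb1 overlapped those of Pou3f2 and Rorb, and the ranges of Cux1 and Rorb overlapped in all groups but the postmitotic controls. Satb1 ranked above both in 3 groups, but in the postmitotic mutants it was the lowest of all, at 7.78 ± 0.209 CPM per kb against 17.4 ± 0.615 CPM per kb in postmitotic controls (SD, n = 3 each).

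**Figure D1:**
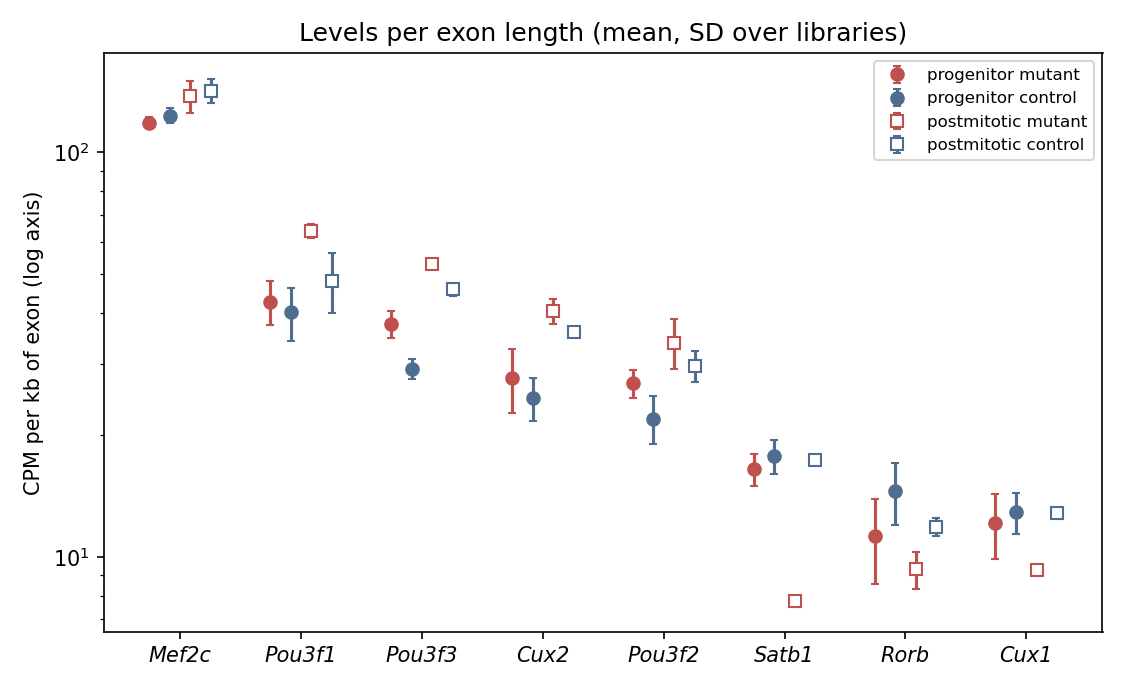
CPM per kilobase of exon (log axis) for each factor, ordered by the progenitor controls; points are group means and bars the SD over libraries (n = 4 per progenitor group, n = 3 per postmitotic group). Mef2c lies above 100 CPM per kb in all 4 groups, and Satb1 in postmitotic mutants is the lowest point, at 7.78 CPM per kb.

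Satb1 fell most of the 8 members in the postmitotic experiment. It had 149, 151 and 144 CPM in the postmitotic mutants, against 319, 331 and 342 CPM in the postmitotic controls. The groups were far apart, each with little spread, and the mutant mean was 44.8% of the control mean. The log2 fold change was −1.16 ± 0.06 (SE, 95% interval −1.30 to −1.02, n = 3 each, edgeR's adjusted p = 4.89e-07). By p-value Satb1 ranked 2 among 17775 tested genes. It stayed called whichever library was left out, with log2 fold changes from −1.18 to −1.13. Y-linked RNA was at 0, 0 and 141 CPM in postmitotic mutants 1 to 3 and at 166, 134 and 0.0463 CPM in postmitotic controls 1 to 3. Its part in the Satb1 fall was not tested.

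The same gene did not pass the test in the progenitor experiment. Satb1 had 281, 339, 299 and 336 CPM in the progenitor mutants, against 342, 372, 295 and 340 CPM in the progenitor controls. The ranges overlapped for most of their length, and the log2 fold change was −0.10 ± 0.08 (SE, 95% interval −0.28 to 0.07, n = 4 each, edgeR's adjusted p = 0.372). The difference between the experiments was itself tested, as the interaction of experiment and label over 15643 shared genes. For Satb1, the progenitor minus the postmitotic log2 fold change was 1.05 ± 0.11 (SE, edgeR's adjusted p = 4.30e-05). Satb1 alone of the 8 members was called for this difference, where 6.94% of all shared genes were called, 3.84% with the higher and 3.10% with the lower fold change in the progenitor experiment.

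Satb1 lies on the minus strand at chr17:51736187-51833290. GENCODE M21 places 6 short provisional transcripts within it or across its start. The most abundant of these, E430014B02Rik, is on the same strand and had 0.590 ± 0.170 CPM in postmitotic mutants and 1.36 ± 0.299 CPM in postmitotic controls (SD, n = 3 each), far below Satb1. The sources used here do not say whether counting used the strand.

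Of the CUT homeodomain pair, Cux1 fell in the postmitotic experiment and Cux2 did not pass the test. Cux1 had 183, 189 and 185 CPM in the postmitotic mutants, against 249, 259 and 264 CPM in the postmitotic controls. Each mutant library lay well below each control, and the mutant mean was 72.2% of the control mean. The log2 fold change was −0.47 ± 0.06 (SE, 95% interval −0.60 to −0.34, n = 3 each, edgeR's adjusted p = 0.000813). The call held in all 6 fits that left out 1 library. It was lost in a single fit of all 14 libraries (edgeR's adjusted p = 0.0822).

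Cux2, its paralogue, had 378, 408 and 435 CPM in the postmitotic mutants, against 355, 366 and 367 CPM in the postmitotic controls. Here the mutant libraries lay above the controls, with a small gap between the groups. The log2 fold change was 0.17 ± 0.07 (SE, 95% interval 0.02 to 0.32, n = 3 each), and edgeR's adjusted p was 0.359, so it was not called. Per kilobase, Cux2 stood at 4.35 ± 0.287 times Cux1 in postmitotic mutants and at 2.80 ± 0.0346 times in postmitotic controls (SD, n = 3 each). In the progenitor experiment the ratio was 2.29 ± 0.0723 in mutants and 1.92 ± 0.0746 in controls (SD, n = 4 each). The libraries of mutants and controls did not overlap in this ratio in either experiment. The ratio was chosen after the values were seen and was not tested.

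In the progenitor experiment neither passed the test. Cux1 had 227, 188, 289 and 264 CPM in the progenitor mutants, against 272, 263, 281 and 215 CPM in the progenitor controls (log2 fold change −0.09 ± 0.13, SE, edgeR's adjusted p = 0.673). Cux2 had 252, 224, 338 and 302 CPM in the progenitor mutants, against 248, 260, 280 and 208 CPM in the progenitor controls (log2 fold change 0.16 ± 0.13, SE, edgeR's adjusted p = 0.414). For the level of each gene the groups overlapped, and the mutants spread more widely than the controls. The Cux1 interaction was 0.38 ± 0.16 (SE, progenitor minus postmitotic, 95% interval 0.03 to 0.73, edgeR's adjusted p = 0.181), and that of Cux2 was −0.00 ± 0.17 (SE, 95% interval −0.37 to 0.36) and was not called.

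Rorb fell in the postmitotic experiment and did not pass the test in the progenitor one. It had 103, 92.2 and 114 CPM in the postmitotic mutants, against 132, 124 and 137 CPM in the postmitotic controls. The groups did not overlap, and the log2 fold change was −0.35 ± 0.08 (SE, 95% interval −0.52 to −0.18, n = 3 each, edgeR's adjusted p = 0.0399). This call lay close to the threshold: it held in 1 of the 6 fits that left out 1 library, with adjusted p up to 0.196. In the progenitor experiment Rorb had 97.8, 100.1, 151 and 148 CPM in mutants, against 176, 182, 164 and 120 CPM in controls. The mutants fell into a low and a high pair, control 4 lay between these pairs, and the log2 fold change was −0.37 ± 0.19 (SE, 95% interval −0.82 to 0.08, n = 4 each, edgeR's adjusted p = 0.209). The difference between the experiments was not called for Rorb (−0.02 ± 0.25, SE, 95% interval −0.57 to 0.53, edgeR's adjusted p = 0.985).

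Satb1, Cux1 and Rorb are the members called lower in the postmitotic experiment, 3 of 8. Among all tested genes 1.06% were called lower there and 1.96% in either direction. The members were chosen with earlier results of these data known, so these shares are a description and no test. The edgeR test called 0 members higher, beside 0.895% of all tested genes, while 3 were higher at an unadjusted p under 0.05 and DESeq2 called 2. The median log2 fold change of the 8 members was 0.06, beside −0.00 over all tested genes. CPM did not overlap between the groups for 6 of 8 members, beside 16.4% of all tested genes: 3 had every mutant library above every control, beside 7.98%, and 3 had every mutant library below, beside 8.44%.

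**Figure D2:**
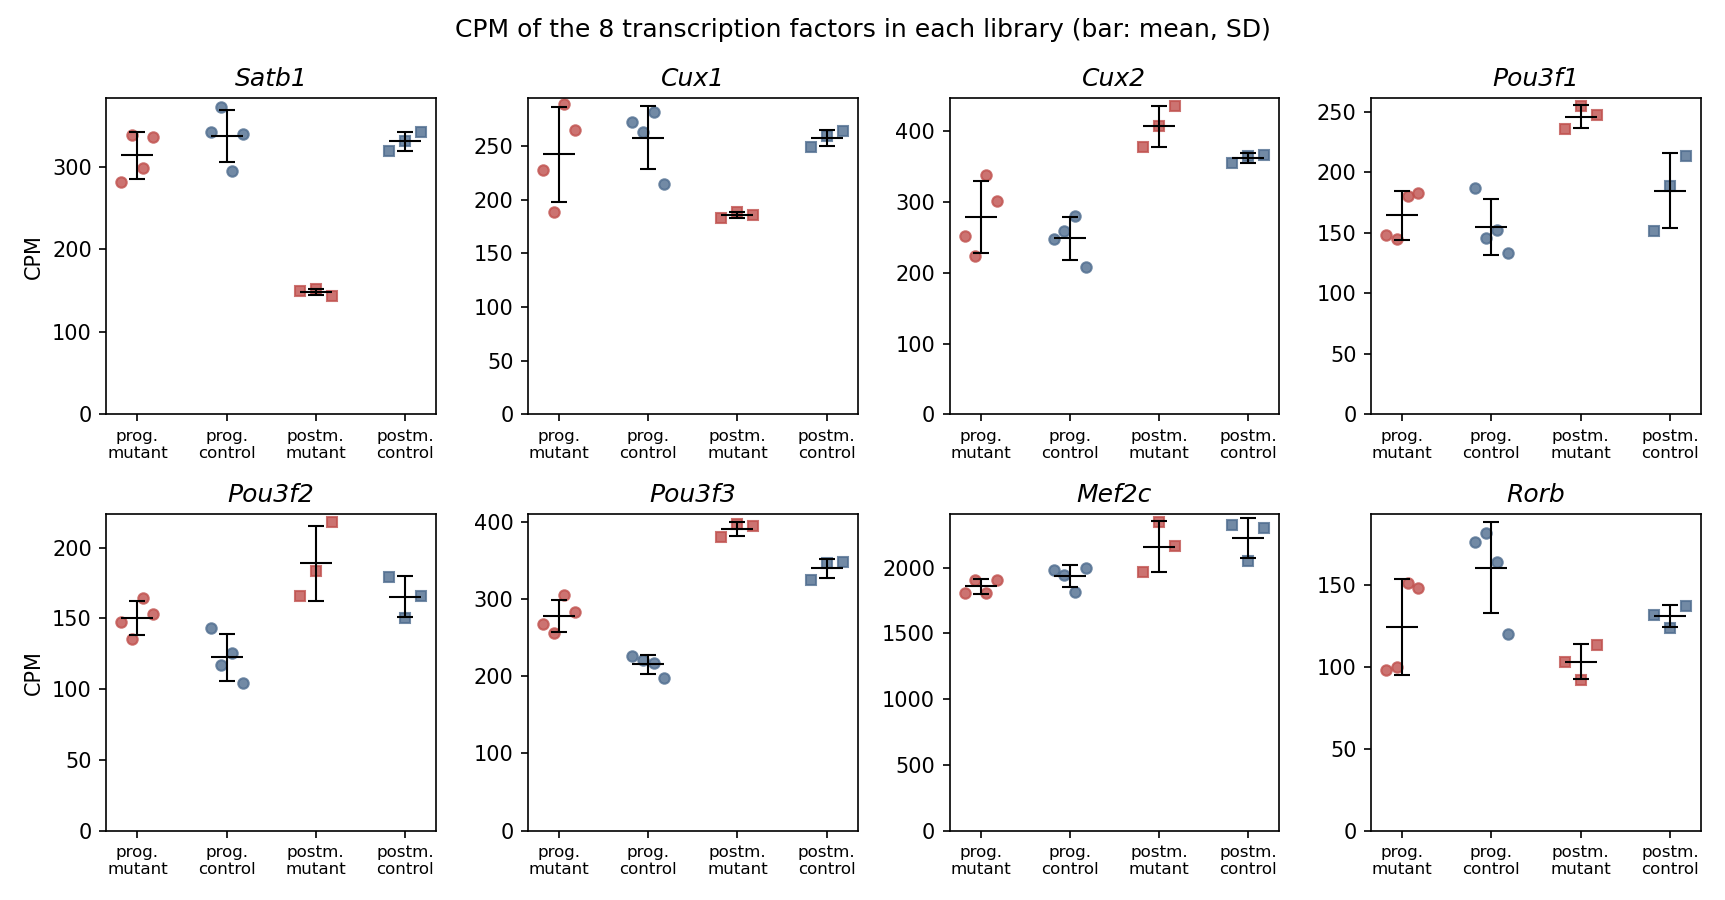
CPM of each factor in each library (vertical axes from 0); points are libraries, horizontal bars the group mean and vertical bars the SD, with circles for the progenitor (prog.) and squares for the postmitotic (postm.) experiment. Satb1 in the 3 postmitotic mutants sits between 144 and 151 CPM, below each library of the other 3 groups.

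Because these 3 genes were called lower together, the 250 bases before 1 RefSeq start of each (GRCm38.p6) are shown, 5′ to 3′ on the gene's strand. They were searched on both strands for the homeodomain core TAATTA, the POU octamer ATGCAAAT, the nuclear receptor core AGGTCA and the MEF2 motif, which is CTA, any 4 bases and TAG. Capitals would mark a match.

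Satb1, chr17:51833291-51833540, minus strand: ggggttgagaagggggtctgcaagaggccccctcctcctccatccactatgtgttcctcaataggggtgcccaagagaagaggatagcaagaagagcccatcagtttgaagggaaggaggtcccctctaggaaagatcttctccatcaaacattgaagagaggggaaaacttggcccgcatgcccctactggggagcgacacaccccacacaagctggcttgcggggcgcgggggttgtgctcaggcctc
Cux1, chr5:136565982-136566231, minus strand: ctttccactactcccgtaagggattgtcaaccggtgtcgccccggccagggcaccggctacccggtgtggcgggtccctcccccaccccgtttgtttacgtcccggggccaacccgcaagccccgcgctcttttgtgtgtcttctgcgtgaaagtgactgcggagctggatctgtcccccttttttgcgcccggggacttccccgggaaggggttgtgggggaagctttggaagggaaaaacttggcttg
Rorb, chr19:19111197-19111446, minus strand: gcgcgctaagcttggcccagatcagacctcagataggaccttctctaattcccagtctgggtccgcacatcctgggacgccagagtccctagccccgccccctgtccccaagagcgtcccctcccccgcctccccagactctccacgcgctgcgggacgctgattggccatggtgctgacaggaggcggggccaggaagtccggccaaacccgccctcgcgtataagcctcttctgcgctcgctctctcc

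None of these windows holds one of the 4 motifs. The GC content was 58.0% for Satb1, 62.8% for Cux1 and 66.0% for Rorb, beside a median of 52.4% over 32851 promoters. It depended on the start used: at other RefSeq starts it was 50.8% to 80.8% for Satb1 and 39.2% for Rorb. The Cux1 window starts from a RefSeq start that lies inside the GENCODE gene. A TAATTA was present in 5.29% of all promoters, taken as 300 bases around the start, an ATGCAAAT in 1.74%, an AGGTCA in 16.3% and the MEF2 motif in 3.69%. The table held 15 such windows for 7 of the 8 members. An AGGTCA was present in 3 of these windows, 1 of Satb1 and 2 of Mef2c, a TAATTA in 1 of Mef2c, and the other motifs in none.

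Of the class III POU genes, Pou3f3 and Pou3f2 rose in the progenitor experiment and Pou3f1 did not pass the test. Pou3f3 had 268, 256, 305 and 283 CPM in the progenitor mutants, against 226, 221, 217 and 198 CPM in the progenitor controls. Every mutant was above every control. The log2 fold change was 0.37 ± 0.06 (SE, 95% interval 0.23 to 0.51, n = 4 each, edgeR's adjusted p = 0.00237), and it stayed called in all 8 fits that left out 1 library.

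Pou3f2 had 147, 136, 164 and 153 CPM in the progenitor mutants, against 143, 117, 126 and 104 CPM in the progenitor controls. The groups overlapped through mutant 2 and control 1. The log2 fold change was 0.29 ± 0.09 (SE, 95% interval 0.09 to 0.50, n = 4 each, edgeR's adjusted p = 0.0427). This was a call near the threshold, held in 2 of the 8 fits that left out 1 library, with adjusted p up to 0.117.

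Pou3f1 had 148, 145, 181 and 183 CPM in the progenitor mutants, against 187, 146, 153 and 134 CPM in the progenitor controls. The groups overlapped almost fully, and the log2 fold change was 0.09 ± 0.11 (SE, n = 4 each, edgeR's adjusted p = 0.622).

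Pou3f2 and Pou3f3 thus made 2 of 8 members called higher in the progenitor experiment, where 12% of all tested genes were called higher and 23.4% in either direction. The edgeR test called 0 members lower, beside 11.4% of all tested genes, and so did DESeq2 and an unadjusted p under 0.05. The median log2 fold change of the members was 0.01, beside 0.00 over all tested genes. Pou3f3 alone of the 8 members had groups that did not overlap, beside 27.0% of all tested genes, 13.7% with every mutant library above and 13.3% with every mutant library below. These shares of members are near the background.

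Values of other genes beside these 2 calls were as follows. Of the markers of cycling cells (Mki67, Top2a, Cenpf, Ccnb1 and Ccna2), 5 of 5 were called higher in the progenitor mutants, beside 12% of all tested genes. Their summed level was 103 to 129 CPM in mutants and 74.1 to 97.8 CPM in controls. The Ccnb1 call held in 4 of the 8 fits that left out 1 library. No cycling marker was at 0. Of the astrocyte and radial glia markers, 2 of 8 were called lower, Slc1a2 and Gfap, beside 11.4% of all tested genes. The Gfap call held in 1 of the 8 such fits. The list had a median log2 fold change of 0.09, with 0.34 for Aldh1l1 and 0.27 for Fabp7, neither called by edgeR, and DESeq2 called 1 of its genes higher. Its sum was 1814 to 2172 CPM in mutants and 2061 to 2608 CPM in controls. Y-linked RNA was present in mutants 2, 3 and 4 only. Mutant 1, which like the controls had none, had 268 CPM of Pou3f3 and 147 CPM of Pou3f2, above the highest control of each. With the Y-linked level as a covariate, both calls were lost, at log2 fold changes of 0.33 and 0.28 (edgeR's adjusted p = 0.0865 for Pou3f3 and 0.284 for Pou3f2). Since Y-linked RNA was nearly confined to mutants, this covariate partly follows the label. The SE was then 0.10 for Pou3f3 and 0.15 for Pou3f2, against 0.06 and 0.09 without it. The part of cycling cells in these results was not tested.

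In the postmitotic experiment none of the 3 POU genes was called by edgeR. Pou3f1 had 236, 255 and 247 CPM in the postmitotic mutants, against 152, 189 and 214 CPM in the postmitotic controls. The mutants lay close together above the more scattered controls, and the log2 fold change was 0.41 ± 0.10 (SE, 95% interval 0.18 to 0.64, n = 3 each, edgeR's adjusted p = 0.0910). The call depended on both the libraries and the method. With libraries 1 and 2 of each group alone, edgeR called Pou3f1 at a log2 fold change of 0.53 (adjusted p = 0.0238), and without control 3 also at 0.53 (edgeR's adjusted p = 0.0130). On all 6 libraries it was called with the replicate block (edgeR's adjusted p = 0.0317), without a filter on low counts and by DESeq2 (adjusted p = 0.00278). The authors' deposited table gives Pou3f1 a log2 fold change of 0.53 and an adjusted p of 0.000917; its fold changes for Satb1 (−1.11), Cux1 (−0.44) and Rorb (−0.38) are also closer to those from libraries 1 and 2 alone, −1.11, −0.45 and −0.39, than to those from all 6.

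Pou3f3 had 381, 397 and 395 CPM in the postmitotic mutants, against 325, 347 and 348 CPM in the postmitotic controls. Again the groups did not overlap, at a log2 fold change of 0.20 ± 0.06 (SE, 95% interval 0.06 to 0.34, n = 3 each, edgeR's adjusted p = 0.178). Pou3f2 had 166, 183 and 218 CPM in the postmitotic mutants, against 180, 150 and 166 CPM in the postmitotic controls, which overlapped (log2 fold change 0.19 ± 0.10, SE, edgeR's adjusted p = 0.504). For no POU member was the difference between the experiments called. The interaction (progenitor minus postmitotic) was −0.33 ± 0.18 for Pou3f1, 0.10 ± 0.15 for Pou3f2 and 0.17 ± 0.09 for Pou3f3 (SE).

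GENCODE M21 places the divergent long noncoding RNA Pantr1 within 1000 bases of the Pou3f3 start. Pantr1 had 89.9 ± 10.8 CPM in progenitor mutants and 73.3 ± 19.4 CPM in progenitor controls (SD, n = 4 each), and its log2 fold change of 0.30 ± 0.18 was not called (SE, edgeR's adjusted p = 0.281). A longer gene annotated as sense-overlapping also covers Pou3f3 on the same strand, and the sources used here do not say how reads in such overlaps were counted. An antisense gene, Gm2164, overlaps the first bases of Pou3f1 and had 2.24 ± 0.892 CPM in postmitotic mutants and 1.97 ± 0.266 CPM in postmitotic controls (SD, n = 3 each), far below Pou3f1.

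Mef2c, the most abundant member, was called in neither experiment. It had 1808, 1905, 1810 and 1907 CPM in the progenitor mutants, against 1985, 1941, 1812 and 2000 CPM in the progenitor controls. The groups overlapped, and the log2 fold change was −0.06 ± 0.05 (SE, 95% interval −0.17 to 0.05, n = 4 each, edgeR's adjusted p = 0.444). In the postmitotic experiment it had 1963, 2349 and 2166 CPM in mutants, against 2321, 2048 and 2303 CPM in controls, with a log2 fold change of −0.04 ± 0.08 (SE, 95% interval −0.21 to 0.12, n = 3 each, edgeR's adjusted p = 0.887). Both intervals thus lie between −0.21 and 0.12 on the log2 scale.

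**Figure D3:**
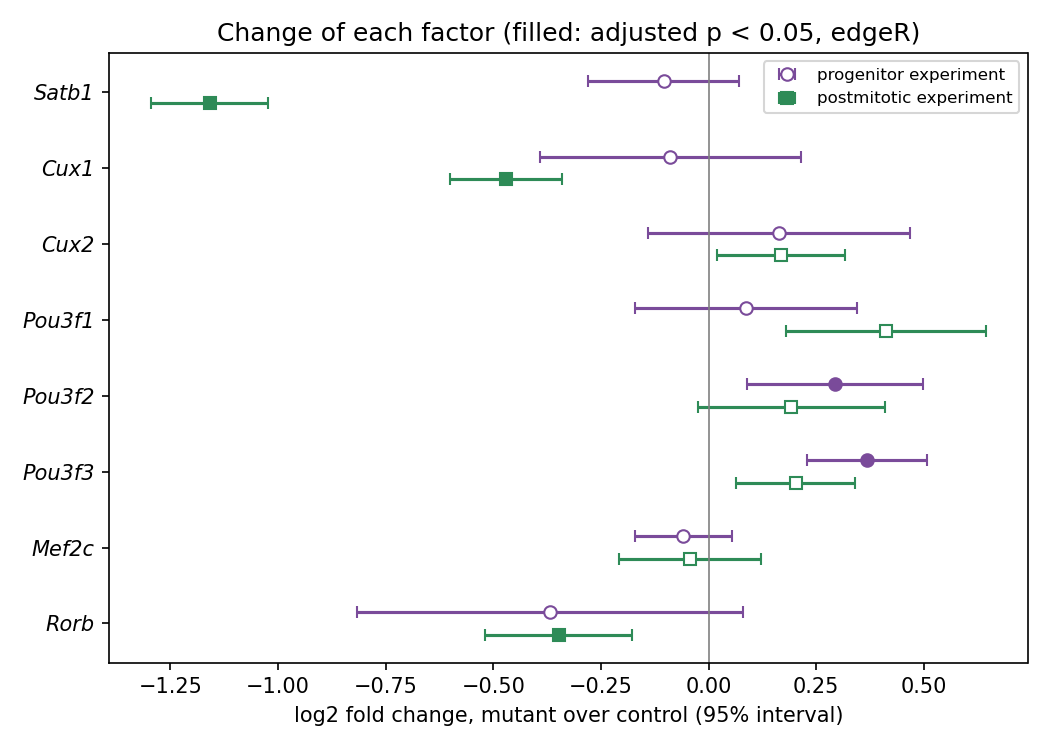
Log2 fold change of each factor, mutant over control, with its 95% interval; circles are the progenitor and squares the postmitotic experiment, and filled symbols have an adjusted p under 0.05. Satb1 in the postmitotic experiment lies at −1.16, away from its progenitor value of −0.10.

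The spread of the members in progenitor mutants had a common shape. For 6 members, Cux1, Cux2, the 3 POU genes and Rorb, mutants 1 and 2 were both below mutants 3 and 4. Control 4 was the lowest progenitor control for the same 6 members. These orders were noticed after the values were seen. Y-linked RNA was present in mutants 2, 3 and 4, and its part in the order was not tested.

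The genes most like each called member were ranked by Pearson's r of log2 CPM over 14 libraries, each experiment centred on its own mean, among 13707 genes. The libraries share their group differences and this is a description. Closest to Satb1 were Trpa1 (r = 0.964), Lmo3 (r = 0.957) and Adcy8 (r = 0.944). Trpa1, a cation channel gene, had 4.08 ± 0.122 CPM in postmitotic mutants and 22.0 ± 3.29 CPM in postmitotic controls (SD, n = 3 each). Lmo3, a LIM-only gene, had 63.2 ± 8.08 CPM in postmitotic mutants and 127 ± 7.44 CPM in postmitotic controls (SD, n = 3 each). Closest to Cux1 were Pde8b (r = 0.945), Ntng2 (r = 0.933) and Sema7a (r = 0.931). Closest to Rorb were Unc5d (r = 0.916), Jdp2 (r = 0.913) and Zbtb34 (r = 0.910). Pou3f2 was most like Fxr1 (r = 0.879), Jade3 (r = 0.867) and Sun1 (r = 0.863), and Pou3f3 most like Cfap58 (r = 0.930), Foxred2 (r = 0.928) and Rep15 (r = 0.924).

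Several relatives of the members passed the test in the progenitor experiment. Of 12 other POU genes, 5 were expressed enough to be tested, and 3 were called higher in progenitor mutants, beside the 12% of all genes given above. Pou2f2, a class II factor, had 22.3 ± 1.95 CPM in progenitor mutants and 15.4 ± 2.17 CPM in progenitor controls (SD, n = 4 each, log2 fold change 0.53). Pou2f1 rose by 0.36 and Pou6f1 by 0.15 on the log2 scale. Pou6f1 was close to the threshold, and its call held in 2 of the 8 fits that left out 1 library. The edgeR test, DESeq2 and an unadjusted p under 0.05 each gave 0 POU relatives in the postmitotic experiment, and for Pou2f2 the difference between the experiments was called (0.56 ± 0.14, SE, edgeR's adjusted p = 0.0210). Onecut2, the 1 tested relative of the Cux genes, rose by 0.87 in progenitor mutants from a low level, 2.05 ± 0.670 CPM in mutants and 1.12 ± 0.256 CPM in controls (SD, n = 4 each), a call held in 4 of the 8 such fits.

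Mef2a and Mef2d, relatives of Mef2c, were called lower in the progenitor experiment, where Mef2c was not called. Mef2a had 155 ± 6.32 CPM in progenitor mutants and 194 ± 16.0 CPM in progenitor controls (SD, n = 4 each), and fell by 0.32 on the log2 scale. Mef2d had 134 ± 2.75 CPM in progenitor mutants and 162 ± 14.8 CPM in progenitor controls (SD, n = 4 each), and fell by 0.28. These were both of the tested relatives there, beside 11.4% of all tested genes called lower. With the Y-linked level as a covariate both calls were lost (edgeR's adjusted p = 0.0571 for Mef2a and 0.145 for Mef2d). Across the alternative settings, this one included, log2 fold changes were −0.38 to −0.30 for Mef2a and −0.29 to −0.26 for Mef2d. In the postmitotic experiment 0 of 3 were called by edgeR or DESeq2, or had an unadjusted p under 0.05. For Mef2d the difference between the experiments was called (−0.37 ± 0.09, SE, edgeR's adjusted p = 0.0224). The tested relative of Rorb, Rora, was called in neither experiment.

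**Figure D4:**
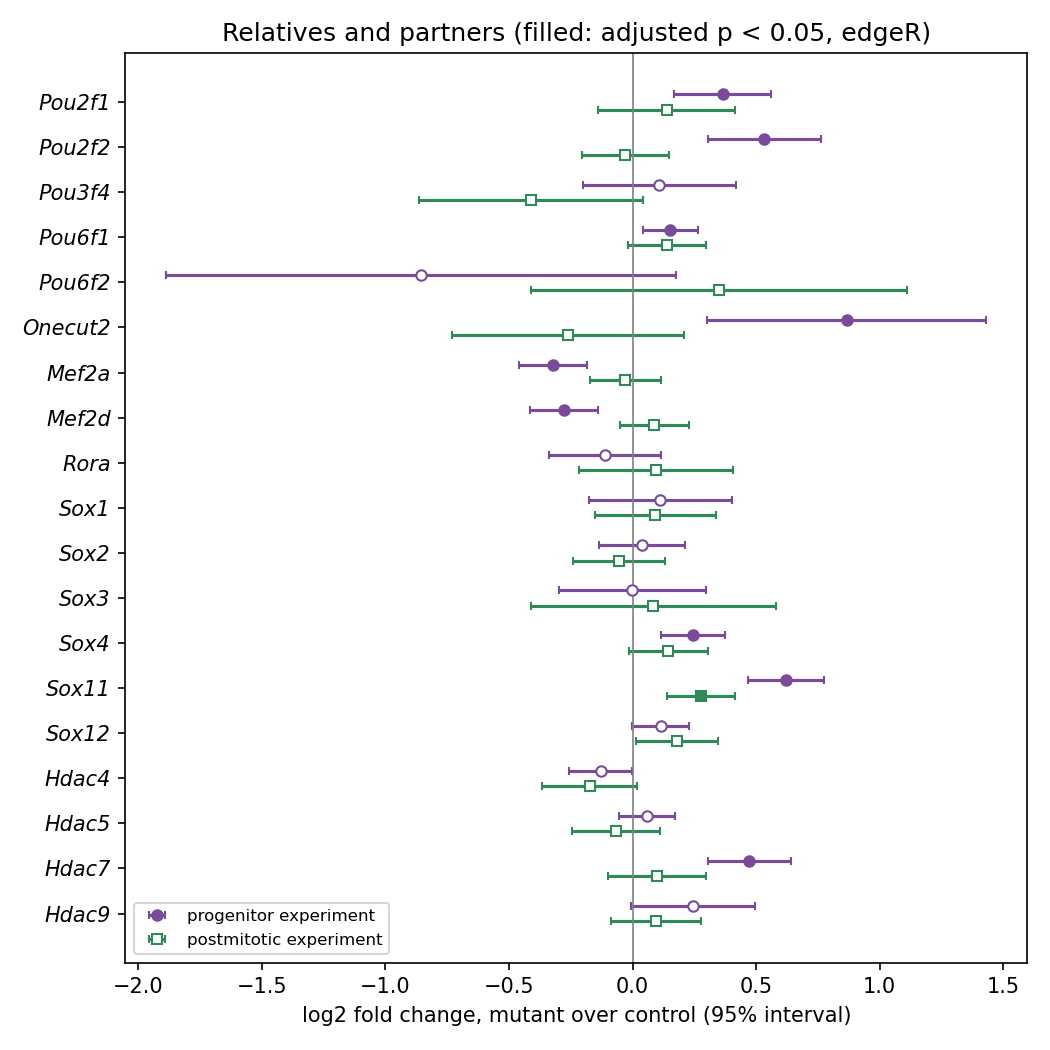
Log2 fold change, mutant over control, with its 95% interval for relatives of the POU, CUT, MEF2 and ROR members, SOX partners and class IIa histone deacetylases; circles are the progenitor and squares the postmitotic experiment, and filled symbols have an adjusted p under 0.05. Sox11 is filled in both experiments, at 0.62 and 0.28.

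SOX factors bind DNA beside class III POU factors in neural cells. Of 6 SOX partners, 2 were called higher in progenitor mutants: Sox11 with a log2 fold change of 0.62 and Sox4 with 0.24, beside 12% of all tested genes. Sox11 had 292 ± 22.2 CPM in progenitor mutants and 190 ± 15.6 CPM in progenitor controls (SD, n = 4 each). It was also the 1 partner called in the postmitotic experiment, at 426 ± 3.86 CPM in mutants and 352 ± 14.2 CPM in controls (SD, n = 3 each, log2 fold change 0.28), a call lost in each fit that left out 1 library. For Sox11 the difference between the experiments was called (progenitor minus postmitotic 0.34 ± 0.10, SE, edgeR's adjusted p = 0.0402). Among class IIa histone deacetylases, which bind and repress MEF2 proteins, 1 of 4 was called in the progenitor experiment, a share near the 23.4% of all tested genes. This was Hdac7, with 70.7 ± 4.36 CPM in progenitor mutants and 50.9 ± 5.24 CPM in progenitor controls (SD, n = 4 each).

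Genes reported as targets moved in no single direction. Among all tested genes 23.4% were called in the progenitor experiment and 1.96% in the postmitotic experiment. Of 7 reported MEF2 targets in neurons, Nr4a1 rose by 0.51 and Arc fell by 0.65 on the log2 scale in progenitor mutants, while Pcdh10, a protocadherin, rose by 0.43 in postmitotic mutants. In fits that left out 1 library the Nr4a1 call held in 8 of 8, the Arc call in 3 of 8 (edgeR's adjusted p up to 0.123) and the Pcdh10 call in 2 of 6. With the Y-linked level as a covariate the Nr4a1 and Arc calls were lost. Nes, the intermediate filament of neural progenitors, was the 1 of 3 reported POU3 targets called, with 78.1 ± 10.9 CPM in progenitor mutants and 53.5 ± 7.26 CPM in progenitor controls (SD, n = 4 each). Of Xlr3b and Xlr4b, reported as repressed by Cux factors, Xlr4b was called higher in progenitor mutants at 2.87 ± 1.63 CPM, against 0.211 ± 0.324 CPM in controls (SD, n = 4 each). It belongs to an X-linked family of near-identical copies, so its counts are uncertain. The call held in 2 of the 8 fits that left out 1 library, with log2 fold changes from 3.37 to 5.74. It was lost without a filter on low counts and with the Y-linked level as a covariate. Neither Xlr gene was called in the postmitotic experiment, where Cux1 fell.

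Among 5 layer IV genes, the layer Rorb is known for, Kcnh5, a potassium channel, had 7.02 ± 2.02 CPM in postmitotic mutants (SD, n = 3) and a log2 fold change of −0.99 against postmitotic controls. It was the 1 called there, in 4 of the 6 fits that left out 1 library. Cyp39a1 was the 1 called in the progenitor experiment, higher by 0.60 at 2.61 ± 0.593 CPM in mutants and 1.72 ± 0.106 CPM in controls (SD, n = 4 each). That call held in 1 of the 8 fits that left out 1 library, and DESeq2 and limma-voom called no layer IV gene there. Of all tested genes 23.4% were called in the progenitor experiment and 1.96% in the postmitotic experiment.

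Of 11 other tested upper-layer genes, 3 were called lower and 1 higher in the postmitotic experiment, where 1.06% and 0.895% of all tested genes were. This list, too, was chosen with earlier results of these data known. Lmo4, a LIM-only regulator, had 94.1 ± 1.98 CPM in postmitotic mutants and 223 ± 2.93 CPM in postmitotic controls (SD, n = 3 each). It fell by 1.25 on the log2 scale. Cadps2 fell by 1.20 and Kitl by 0.71 on the log2 scale, and the cadherin gene Cdh13 rose by 0.58. In the progenitor experiment Lmo4 did not pass the test, Calb1, Cadps2 and Kitl were lower by 1.03, 0.51 and 0.36, and Inhba and Mdga1 rose by 1.07 and 0.53. Of all tested genes there, 11.4% were called lower and 12% higher.

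Markers of other cells were followed beside the postmitotic falls of Satb1, Cux1 and Rorb. Satb1 is also known from inhibitory neurons. Of 12 markers of these neurons 0 were called by edgeR or DESeq2 in the postmitotic experiment, and 2 were higher at an unadjusted p under 0.05. Their summed level was 361 to 396 CPM in postmitotic mutants and 334 to 378 CPM in postmitotic controls. Their part in the Satb1 fall was not tested. Of 6 deep-layer markers, 4 were called higher (Ldb2, Tbr1, Tle4 and Foxp2; Tle4 in 2 of the 6 fits that left out 1 library), and their sum was 404 to 484 CPM in postmitotic mutants and 299 to 317 CPM in postmitotic controls, with no overlap. Of 7 excitatory markers, 2 were called higher and 4 lower. Emx1 and Slc17a6, both lower, and Tbr1, which was higher and is also in the deep-layer list, had the smallest p. Neurod6, whose locus carries the NexCre allele, is among the 4 called lower and is part of the sum. The sum was 898 to 966 CPM in postmitotic mutants and 953 to 1041 CPM in postmitotic controls. Of 8 astrocyte and radial glia markers, edgeR called 0 and DESeq2 called 2 lower, and 4 were lower at an unadjusted p under 0.05. Their sum was 1030 to 1170 CPM in postmitotic mutants and 1194 to 1297 CPM in postmitotic controls, with no overlap. Of the oligodendrocyte, microglial, endothelial and cycling markers, edgeR and DESeq2 called 0, and the sums of each list overlapped. Among all tested genes 0.895% were called higher in the postmitotic experiment and 1.06% lower. No deep-layer or excitatory marker was at 0. These lists were chosen with earlier results of these data known. The part of a different share of deep-layer tissue or of astrocytes in these falls was not tested.

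In the progenitor experiment 2 of 12 inhibitory markers were called lower, Slc32a1 and Gad1, and the sum was 305 to 362 CPM in mutants and 321 to 416 CPM in controls. Among excitatory markers 1 of 7 was called higher (Neurod2) and 3 lower (Camk2a, Slc17a7 and Emx1), with a sum of 1124 to 1228 CPM in mutants and 1493 to 1725 CPM in controls. Microglial markers were followed because microglia also express Mef2c. Of these, 2 of 10 were called lower (Ctss and Aif1, each in 2 of the 8 fits that left out 1 library). Their sum was 127 to 170 CPM in mutants and 153 to 224 CPM in controls. Endothelial and mural markers had 3 of 10 called higher (Abcc9, Kcnj8 and Rgs5) and oligodendrocyte markers 3 of 8 (Cspg4, Pdgfra and Mog). Among all tested genes 12% were called higher in this experiment and 11.4% lower. In fits that left out 1 library the calls of Kcnj8, Rgs5 and Mog held in 3, 2 and 5 of 8. The part of these cells in the members' values was not tested.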

How the data were processed

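Each experiment has 1 table, in which the authors deposited raw counts of reads as whole numbers for every gene symbol. Libraries were made with a directional kit and read as paired 150-base reads, per the labels' protocols. The build mm10 and the tools HISAT2, featureCounts and DESeq2 are named per the submitters' processing notes, with versions, annotation and strand setting not given in the sources used here. Tables of DESeq2 results were also deposited by the authors, holding log2 fold changes and p-values per the file headers.

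The experiments were fitted separately in edgeR 4.0.16 under R 4.3.3 (filterByExpr, TMM, robust glmQLFit, glmQLFTest, Benjamini-Hochberg adjustment over all tested genes), with 15295 and 17775 genes tested. The interaction used all 14 libraries and 15643 shared genes. CPM use TMM-scaled library sizes of the tested genes and come from separate tables, so levels were not tested between experiments. The procedure was tested on simulated counts. There the interaction test missed part of the simulated differences, and the pass mark for recovered differences was lowered after an earlier mark failed. A difference between the experiments that was not called may therefore still exist. Between replicates of a group, chi-square divided by its degrees of freedom was 6.73 to 20.7, above sampling noise, and each library counted as 1 replicate. Alternatives included DESeq2 1.42.0, limma-voom (limma 3.58.1), no filter on low counts, a replicate block and leaving out each library. Lengths and positions are from GENCODE M21 (GRCm38) and promoters from RefSeq (GRCm38.p6); Pou3f1 had no promoter entry. The members and all gene lists were chosen with earlier results of these data known. The text names the members, Lhx2, each list's called genes (at least the 3 of smallest p), and the 3 genes most like each called member.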

Additional observations from a re-analysis of the deposited data

Results flagged for a closer look

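The change of Satb1 differed between the experiments. In the interaction test over all 14 libraries, the log2 fold change in the progenitor experiment minus that in the postmitotic experiment was 1.05 (edgeR's quasi-likelihood F test, Benjamini-Hochberg adjusted p = 4.30e-05). It stayed between 0.99 and 1.10, and called, whichever of the 14 libraries was left out. The experiments differ in the way Cre was delivered, in the cells that it reaches within tissue with no named sorting step, and in the tables that hold their counts. Postmitotic mutants also carry the NexCre allele, which their controls lack. These cannot be told apart from the stage of deletion. Y-linked RNA was divided unevenly in each experiment, and its part in this difference was not tested.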

How the results depend on the processing

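The postmitotic falls of Satb1 and Cux1 and the progenitor rise of Pou3f3 kept their direction under each alternative run. Adding the Y-linked level as a covariate left 948 genes called in the progenitor experiment, 0 members higher, 1 family gene, 7 partner or target genes and 8 cell type markers, and turned Pou3f1 to −0.050. As said above, this covariate partly follows the label. An adjusted p under 0.01 left 1567 genes, 1 member higher, 3 family genes and 10 markers there, and 146 genes, 3 partner or target genes and 5 markers in the postmitotic experiment, where Lhx2 (0.29) was then not called. Leaving out 1 library gave 2383 to 3712 genes, 1 to 2 members higher and 13 to 29 markers in the progenitor experiment; the lowest gene count was without mutant 3. It gave 160 to 467 genes (lowest without control 2, with 197 without control 3), 0 to 1 members higher, 3 to 7 partner or target genes and 5 to 11 markers in the postmitotic experiment, and 598 to 1481 genes and 1 to 2 members for the difference, the second being Cux1 without progenitor mutant 2. Log2 fold changes then ranged from −0.19 to 0.017 for Cux1 and from −0.015 to 0.080 for Lhx2 in the progenitor experiment, and from −0.10 to 0.022 for Mef2c and from 0.27 to 0.32 for Lhx2 in the postmitotic experiment. The differences ranged from −0.11 to 0.087 for Cux2, from −0.080 to 0.049 for Mef2c and from −0.14 to 0.077 for Rorb. DESeq2 called 527 postmitotic genes with 2 members higher (Pou3f1 and Pou3f3), and 1650 genes for the difference. Without a filter on low counts 723 postmitotic genes and 1 member higher were called, and with libraries 1 and 2 alone 1 member higher, Pou3f1, with Lhx2 at 0.25 and not called. One fit of all 14 libraries left 1 member lower, 4 partner or target genes and 5 markers in the postmitotic experiment, and Lhx2 at 0.29 and not called. Rorb's postmitotic call was lost with limma-voom, without robust estimation, at an adjusted p under 0.01, with the block, with libraries 1 and 2 alone and in the fit of all 14 libraries. The causes were not tested. Replicate numbers were not taken to pair the samples. After each gene's group mean was subtracted from log2 CPM, same-numbered mutants and controls correlated at −0.44 to 0.09 in the progenitor and −0.20 to 0.03 in the postmitotic experiment. Differently numbered ones correlated at −0.37 to 0.45 and −0.10 to 0.18. With the replicate block 659 genes were called for the difference, 1 member (Pou3f1) was higher in the postmitotic experiment, and Lhx2 there was 0.29 and not called. With 3 or 4 libraries a group, small changes such as those of Cux2 may not be detectable.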
